A study of Mus musculus with 9 samples.

Results

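Among the genes linked to B-1 cells, 8 were examined in splenic B cell subsets of the mouse: Cd5, Spn, Bhlhe41, Bhlhe40, Plscr1, Cd300lf, Zbtb32 and Arid3a. They were chosen by name, with earlier results of these data known, and each had 1 row among the 24459 gene rows of the expression table. B-1 cells are innate-like B cells, most abundant in the body cavities and rare in the spleen, that arise largely in fetal life, renew themselves and secrete natural antibody. Their B-1a form carries CD5, a negative regulator of B cell receptor signalling, and they also display CD43, the sialomucin encoded by Spn. The repressors encoded by Bhlhe41 and Bhlhe40 are needed for the B-1a compartment to be maintained, and Arid3a favours B-1 development.

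RNA was sequenced from 3 sorted splenic subsets. Follicular cells (FO) were B220+ IgM int CD21 int CD23+ CD93- and IgD high. B cells that are IgD low (BDL) shared these markers but were IgD low or negative. Marginal zone cells (MZ) were B220+ IgM hi CD21 hi CD23- CD93-. Each subset had 3 libraries, called replicates 1 to 3, and libraries of different subsets with the same replicate number had the same date in their titles. All were from untreated mice of 8 to 10 weeks with no engineered allele named, and the splenocytes of 5 mice were pooled for a sort, so the spread between libraries was that between pools. The labels give the strain as C57/BL6, whereas the methods of the study name B10.PL for the RNA-seq, and this was not resolved. No B-1 population was sequenced, so every value below compares FO, BDL and MZ cells with each other and none with B-1 cells.

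The defining markers were read first. Ms4a1, Cd79a and Pax5 were high in all 9 libraries and were not called different in any comparison. The follicular genes Fcer2a and Ccr7 were called lower, and the marginal zone genes Cr2, Cd1d1, Dtx1, S1pr3 and Asb2 higher, in MZ cells than in either other subset. Asb2 was at 0.154 to 0.219 FPKM in FO, 0.440 to 0.507 in BDL and 20.3 to 30.6 in MZ. It was also called higher in BDL than in FO, by 1.01 (limma adjusted p = 0.0136). S1pr3 was above FO in BDL by 0.85 (limma adjusted p = 0.0452), under the fold minimum. Cr2 and Notch2 were lower in BDL than in FO without overlap and were not called. Notch2, also of the marginal zone list, was not called, at 56.4 to 64.8 FPKM in FO, 43.5 to 48.0 in BDL and 50.3 to 65.8 in MZ. The genes of early B cell development Rag1 and Rag2 were at or below 0.0201 FPKM everywhere, and Igll1 was listed at 0 in all 9 libraries. Of the same list of 7 early and transitional genes, Vpreb3 was at 92.2 to 112 FPKM in FO, 114 to 150 in BDL and 18.6 to 23.4 in MZ, and was called higher in BDL than in MZ, by 2.55 (limma adjusted p = 1e-05), and lower in MZ than in FO. Vpreb1 was low throughout, at 0.0895 to 0.147 FPKM in BDL, at most 0.0584 in FO and 0.0653 to 0.279 in MZ. Cd93, whose product the gates excluded, was at 10.2 to 15.9 FPKM in BDL cells, 3.10 to 5.29 in FO cells and 1.12 to 1.74 in MZ cells. By flow cytometry the study also found CD93 protein to be highest on BDL cells, and it describes them as CD93 int. BDL replicate 3 stood apart for several B cell genes, among them Siglecg with 93.4 FPKM against 232 and 224 in the other BDL libraries. Replicate 2 of every subset held the most RNA of S100a8 and S100a9, granulocyte genes, at a summed 4.28 to 4.77 FPKM against 0 to 0.802 in the other 6 libraries.

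Levels are in FPKM, fragments per kilobase of transcript, scaled to the mapped fragments of the library, as the authors deposited them. A difference is given as a log2 fold change of FPKM plus 0.1, with its standard error (SE), and was tested with limma over the 11597 rows that averaged at least 0.5 FPKM. A gene was called higher or lower where the Benjamini-Hochberg adjusted p was under 0.05 and the fold change at least 2. All 8 genes passed the minimum.

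To show the DNA in front of those genes that were highest in BDL cells, the bases just before the transcription start were taken from RefSeq (GRCm38.p6), written 5′ to 3′ on the gene's strand. Of the 8 genes, 6 had a promoter in that table, and Bhlhe40 and Arid3a were not among them. Capitals mark CACGTG, the E-box that the proteins of Bhlhe40 and Bhlhe41 bind, which reads the same on both strands. The Bhlhe41 stretch covers 250 bases, chr6:145865421-145865670 on the minus strand. The Cd5 stretch (chr19:10738975-10739074), the Spn stretch (chr7:127137824-127137923) and the 2 Zbtb32 stretches (chr7:30598910-30599009 for start a and chr7:30592943-30593042 for start b) cover 100 bases each, all on the minus strand.
Bhlhe41: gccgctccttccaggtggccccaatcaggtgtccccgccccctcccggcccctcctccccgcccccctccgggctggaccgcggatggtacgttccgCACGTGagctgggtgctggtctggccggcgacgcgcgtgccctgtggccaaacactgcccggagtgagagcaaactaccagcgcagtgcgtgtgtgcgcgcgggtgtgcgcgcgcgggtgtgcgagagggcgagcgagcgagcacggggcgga
Cd5: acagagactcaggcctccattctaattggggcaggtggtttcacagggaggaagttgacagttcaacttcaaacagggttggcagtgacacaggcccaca
Spn: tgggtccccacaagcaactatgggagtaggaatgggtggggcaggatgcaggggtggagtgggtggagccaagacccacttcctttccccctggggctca
Zbtb32, start a: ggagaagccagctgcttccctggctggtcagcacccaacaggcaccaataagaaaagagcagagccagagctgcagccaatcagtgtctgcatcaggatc
Zbtb32, start b: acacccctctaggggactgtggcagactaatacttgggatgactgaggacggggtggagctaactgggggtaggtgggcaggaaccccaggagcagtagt
In windows from 250 bases before to 50 bases after the start, 1 of the 6 genes held CACGTG, namely Bhlhe41, with the first base at -153. The same motif was present in 2349 of 32851 windows of this length in the mouse table, or 7.15%. A match of these letters is a description and does not show binding.

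The genes for surface proteins came first in the comparison. Cd5 (chromosome 19, 10792633 to 10813464, minus strand, NCBIM37) was at 0.638, 0.566 and 0.385 FPKM in FO replicates 1 to 3, at 2.21, 2.45 and 1.63 in BDL and at 1.89, 2.18 and 1.51 in MZ. Every BDL and every MZ library was thus above every FO library, while BDL and MZ overlapped. The difference between BDL and FO was 1.80 on the log2 scale (SE 0.224, limma adjusted p = 0.00322), with 1.65 to 1.94 within the 3 same-date pairs. MZ cells were above FO cells by 1.65 (SE 0.224, limma adjusted p = 0.000917). Between BDL and MZ the difference was 0.16, with a 95% interval of -0.36 to 0.67 (limma adjusted p = 0.644). As these were bulk samples, more cells that express Cd5 and more Cd5 RNA per cell cannot be told apart, and the same holds for each gene below. Cd5 was a low-abundance transcript, with about 47 to 318 fragments per library as estimated from the spacing of low FPKM values. For the protein, the study reported by flow cytometry that CD5 was raised on BDL cells, an increase it called marginal. It also stated that the CD5 level of BDL cells was not high.

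T cells also express Cd5 and Spn, so the genes of the CD3 chains were read beside them. Cd3d, Cd3e and Cd3g together summed to 0.663 to 1.46 FPKM in FO, 0.722 to 1.57 in BDL and 0.540 to 1.52 in MZ libraries. These ranges overlapped, and the highest sum of each subset was in replicate 2. Among the 14 T cell genes listed, 8 were under 0.5 FPKM in every library, 4 could be tested and Zap70, a kinase of the T cell receptor pathway, was the 1 that was called. It was higher in MZ cells than in either other subset and lowest in BDL cells, at 0.833 to 1.06 FPKM. The summed T cell list was 145.6 to 182 FPKM in FO, 159 to 215 in BDL and 94.0 to 106 in MZ, nearly all of it Cd2, which B cells of the mouse also express. Cd4, Bcl11b and Themis were at or below 0.262 FPKM in all 9 libraries. Themis was at 0.00845 to 0.0131 FPKM in FO, 0.0207 to 0.0438 in BDL and 0.00926 to 0.0468 in MZ. Cd28 was at 0.0308 to 0.140 FPKM in FO, 0.115 to 0.267 in BDL and 0.0255 to 0.190 in MZ. BDL and FO ranges did not overlap for Themis, higher in BDL, and Zap70, lower in BDL. Cd28, Cd8a, Cd3g and Themis were higher in BDL than in FO in each same-date pair. Lat and Zap70 were lower in each, and the other listed genes went both ways.

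Spn (chromosome 7, 134275746 to 134281337, minus strand) followed another order. It was at 3.11, 2.64 and 3.02 FPKM in FO, at 6.89, 5.65 and 8.34 in BDL and at 1.07, 1.15 and 0.965 in MZ replicates 1 to 3. The 3 subsets did not overlap, with BDL highest and MZ lowest. The BDL level exceeded that of FO by 1.21 (SE 0.148, limma adjusted p = 0.00318) and that of MZ by 2.59 (SE 0.148, limma adjusted p = 1.1e-05). In MZ cells Spn fell by 1.38 relative to FO cells (SE 0.148, limma adjusted p = 0.000243). Spn was the 1 gene of the 8 that was lowest in MZ cells, the other 7 being lowest in FO cells. CD43 protein was also reported by the study to be raised on BDL cells, again marginally.

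Cd300lf (chromosome 11, 114977528 to 114995306, minus strand) encodes an inhibitory receptor of the CD300 family that is best known from myeloid cells. In MZ replicates 1 to 3 it was at 18.6, 27.4 and 14.9 FPKM. FO libraries held 1.74, 2.43 and 1.99 FPKM, and BDL libraries 2.81, 3.48 and 1.18. The MZ libraries were all far above the rest, whereas FO and BDL overlapped. MZ exceeded FO by 3.21 (SE 0.381, limma adjusted p = 0.000422). BDL was below MZ, with a difference of -3.06 (SE 0.381, limma adjusted p = 0.00064). The difference between BDL and FO was 0.15, with a 95% interval of -0.72 to 1.03 (limma adjusted p = 0.837), and its sign turned to -0.14 without BDL replicate 2. Replicate 3 gave the lowest BDL value and lay below its same-date FO library. The gene lies within Rab37 on the opposite strand and shares no exonic base with it, and Rab37 was at 4.05 to 4.71 FPKM in FO, 2.53 to 3.46 in BDL and 7.10 to 9.37 in MZ.

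Because myeloid cells also express Cd300lf, 10 myeloid genes were read in the same libraries. Summed, they reached 5.76 to 14.4 FPKM in FO, 12.4 to 22.5 in BDL and 46.7 to 58.8 in MZ. Most of the MZ sum was Mpeg1, at 43.2 to 47.8 FPKM, and it was called higher in MZ than in FO and BDL and in BDL than in FO. The defining genes Cd14 and Fcgr1 were at or below 0.125 FPKM in all libraries, and Csf1r was at 0.281 to 0.377 in FO, 0.330 to 0.435 in BDL and 0.434 to 0.626 in MZ. Itgax was at 0.0560 to 0.190 FPKM in FO, 0.114 to 0.292 in BDL and 0.485 to 0.669 in MZ, so that Mpeg1, Csf1r and Itgax were, like Cd300lf, higher in every MZ library than in any FO library. Lyz2 and the S100a8 and S100a9 pair were highest in replicate 2 of every subset, as were Bhlhe40, Plscr1 and Cd300lf. The difference between MZ and FO within replicates 1, 2 and 3 was 2.57, 2.80 and 2.64 for Plscr1 and 3.35, 3.44 and 2.84 for Cd300lf. The 7 NK cell genes summed to 1.41 to 6.15 FPKM in FO, 3.04 to 5.64 in BDL and 1.33 to 5.33 in MZ, again highest in replicate 2 and led by Gzma. Klrb1c was at 0.365 to 0.437 FPKM in BDL and at most 0.302 in the other libraries, and Klrd1 at 0.766 to 1.25 in BDL, 0.0964 to 0.672 in FO and 0.476 to 0.823 in MZ. The part of the other cells in these values was not tested beyond this.

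Plscr1 (chromosome 9, 92144895 to 92166813, plus strand) encodes phospholipid scramblase 1, an interferon-inducible membrane protein. It was at 1.78, 2.54 and 1.68 FPKM in FO, at 4.18, 5.32 and 3.81 in BDL and at 11.1, 18.3 and 11.0 in MZ replicates 1 to 3. The subsets formed 3 separate steps with BDL in the middle. BDL was above FO by 1.12 (SE 0.240, limma adjusted p = 0.029) and MZ above FO by 2.67 (SE 0.240, limma adjusted p = 9.1e-05). Against MZ, BDL was at -1.55 (SE 0.240, limma adjusted p = 0.00204). Within the 3 same-date pairs BDL was above FO by 1.03 to 1.18. The call between BDL and FO was kept with replicates matched by date, and without replicate 2 of every subset. It was lost when some single libraries were left out. Without FO replicate 1 or 3 or BDL replicate 1 or 2 the limma adjusted p was 0.0835 to 0.12. Without BDL replicate 2 the difference was 0.98. With 1 instead of 0.1 added before the log2 it was 0.86, under the fold minimum.

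**Figure D1:**
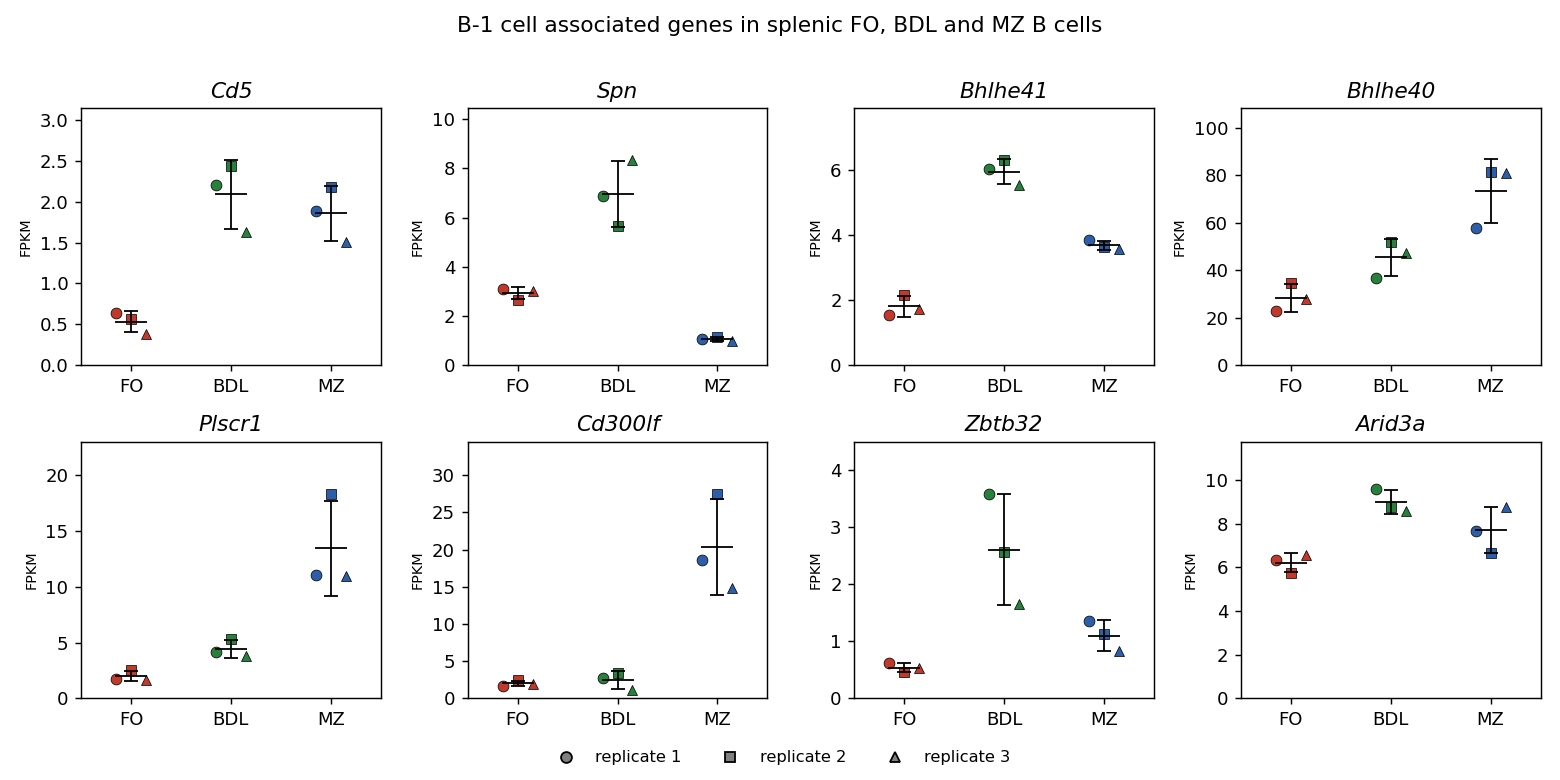
FPKM of the 8 B-1 cell associated genes in each library, 1 panel per gene, with FO, BDL and MZ on the horizontal axis and the symbol giving the replicate; horizontal bars and whiskers are the mean and SD of 3 libraries. Spn is highest in BDL and lowest in MZ, whereas Plscr1 and Cd300lf are highest in MZ.

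Of the transcription factor genes, Bhlhe41 (chromosome 6, 145806763 to 145814078, minus strand) had the smallest adjusted p between BDL and FO among the 8 genes. It encodes a basic helix-loop-helix repressor. Its level was 1.53, 2.16 and 1.72 FPKM in FO, 6.01, 6.29 and 5.53 in BDL and 3.84, 3.62 and 3.57 in MZ replicates 1 to 3. All 3 subsets were apart, with MZ in the middle. BDL exceeded FO by 1.68 (SE 0.124, limma adjusted p = 0.000326). BDL was also above MZ, by 0.68 (SE 0.124, limma adjusted p = 0.0047), which is under the fold minimum. MZ exceeded FO by 1.0 (SE 0.124, limma adjusted p = 0.00055), at the edge of the 2-fold minimum, and the difference was 0.90 to 0.98 without FO replicate 1 or 3 or MZ replicate 1.

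Bhlhe40 (chromosome 6, 108610623 to 108616919, plus strand), the closest paralog of Bhlhe41, was the most abundant of the 8 transcripts by FPKM. It was at 22.8, 34.4 and 27.8 FPKM in FO, at 36.8, 52.0 and 47.1 in BDL and at 57.8, 81.4 and 81.0 in MZ replicates 1 to 3. Here the order was FO, BDL, MZ with no overlap, so that the paralogs had their highest level in different subsets. MZ was above FO by 1.37 (SE 0.204, limma adjusted p = 0.00149). The difference between BDL and FO was 0.68 (SE 0.204, limma adjusted p = 0.084), and it was 0.59 to 0.76 in the 3 same-date pairs. Over 19 alternative settings it was 0.54 to 0.83, always under the fold minimum. Its limma adjusted p was 0.00383 to 0.256 there, and under 0.05 in 1 of them. Against MZ, BDL was at -0.69 (SE 0.204, limma adjusted p = 0.0366), under the fold minimum. The annotated noncoding gene 0610040F04Rik on the opposite strand shares 118 exonic bases with Bhlhe40 and was at or below 0.351 FPKM in all libraries.

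Zbtb32 (chromosome 7, 31374700 to 31383928, minus strand) encodes a zinc finger repressor of lymphocytes. It was at 0.626, 0.462 and 0.528 FPKM in FO, at 3.59, 2.57 and 1.65 in BDL and at 1.35, 1.12 and 0.824 in MZ replicates 1 to 3. Even the lowest BDL library was above all MZ libraries, although BDL had a wide spread. BDL was above FO by 2.02 (SE 0.286, limma adjusted p = 0.0056), the largest difference among the 8 genes in that comparison. Over MZ the difference was 1.13 (SE 0.286, limma adjusted p = 0.0202). This call was lost, with adjusted p of 0.0529 to 0.0564, without BDL replicate 1 or 2 or MZ replicate 2 or 3, and it was 0.0603 when FO libraries were left out of the fit. MZ exceeded FO by 0.89 (SE 0.286, limma adjusted p = 0.0501), which missed the threshold and passed it without MZ replicate 3, at 1.07 (limma adjusted p = 0.0418). Zbtb32 rested on about 47 to 360 fragments per library.

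Arid3a (chromosome 10, 79389788 to 79417763, plus strand), whose product binds AT-rich DNA at the immunoglobulin heavy chain locus, had a narrow range. It was at 6.34, 5.74 and 6.57 FPKM in FO, at 9.60, 8.79 and 8.60 in BDL and at 7.68, 6.68 and 8.79 in MZ replicates 1 to 3. BDL was above FO in each library and overlapped MZ. The difference between BDL and FO was 0.53 (SE 0.110, limma adjusted p = 0.0267), below the fold minimum. BDL and MZ differed by 0.23, with a 95% interval of -0.03 to 0.48 (limma adjusted p = 0.166). MZ and FO differed by 0.30 (SE 0.110, limma adjusted p = 0.08).

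Counted together, 5 of the 8 genes were called higher in BDL than in FO cells (Cd5, Spn, Bhlhe41, Plscr1 and Zbtb32) and 0 lower, where 1.64% of all tested rows were called higher and 0.267% lower. As the genes were chosen with earlier results of these data known, these shares and those below are descriptive. The median log2 fold change of the 8 genes was 1.16, against 0.05 over all tested rows. The FPKM ranges of BDL and FO did not overlap for 7 of them, each higher in BDL, which 24.4% of all rows also showed, while 10.3% had ranges that were lower without overlap. Without replicate 2 of every subset, the date with the granulocyte RNA, 2 of the 8 were called, Bhlhe41 and Plscr1. In that fit of 2 libraries a subset Cd5 still differed by 1.74 (limma adjusted p = 0.104), Spn by 1.28 (limma adjusted p = 0.0502) and Zbtb32 by 1.91 (limma adjusted p = 0.152), and 64 rows in all were called higher in BDL instead of 190.

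Between BDL and MZ the 8 genes went both ways. Spn and Zbtb32 were called higher in BDL and Plscr1 and Cd300lf lower, 2 in each direction, where 3.47% of all tested rows were called higher and 4.34% lower. The ranges did not overlap for 6 of the 8, 3 higher and 3 lower in BDL, against 22.6% and 16.4% of all rows. Their median log2 fold change was 0.19, against 0.06 over all rows.

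MZ cells differed from FO cells at 5 genes called higher (Cd5, Bhlhe41, Bhlhe40, Plscr1 and Cd300lf) and 1 called lower (Spn), where 5.54% of all tested rows were called higher and 3.39% lower. All 8 had ranges that did not overlap, 7 higher and 1 lower in MZ, against 23.6% and 22.5% of all rows. The median was 1.19, against -0.01 over all rows. The 3 comparisons share libraries, so they are not independent of each other. Of the 8 genes, 5 had their highest mean in BDL, 3 in MZ and 0 in FO.

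**Figure D2:**
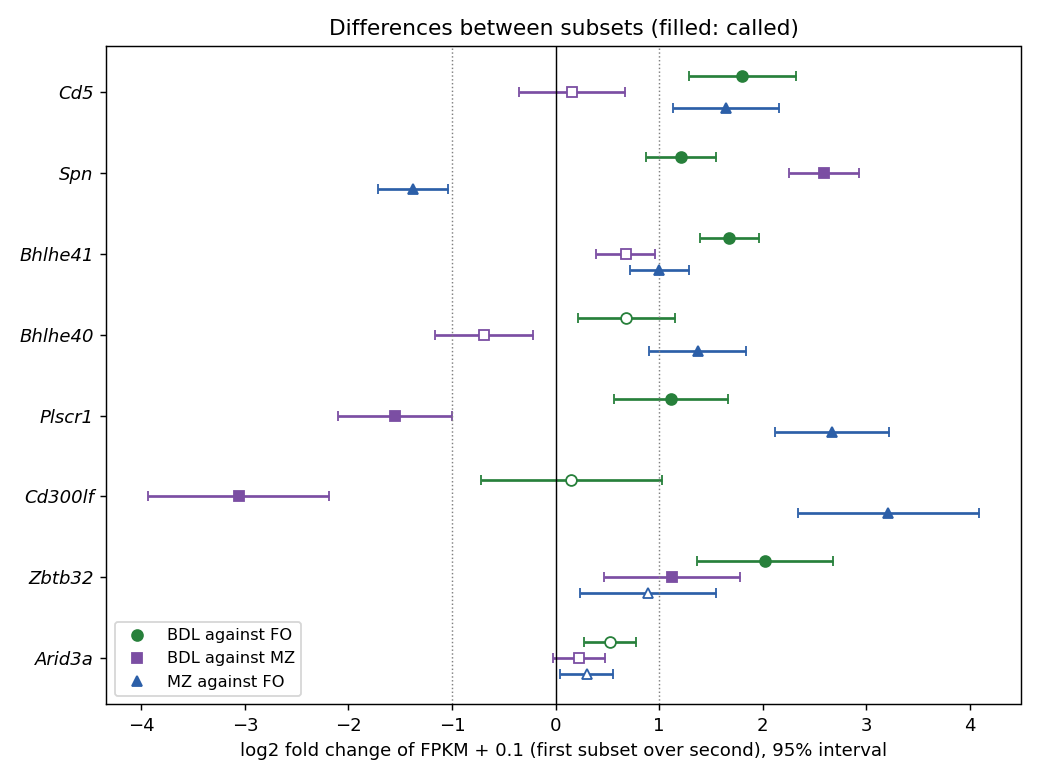
Log2 fold change of FPKM plus 0.1 on the horizontal axis with its 95% interval, for each of the 8 genes and each of the 3 comparisons; filled symbols are called (limma adjusted p under 0.05 and at least 2-fold), and dotted lines mark 2-fold. Cd5, Spn, Bhlhe41, Plscr1 and Zbtb32 are called higher in BDL than in FO, whereas Cd300lf and Plscr1 are called lower in BDL than in MZ.

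Relatives of these genes were read to see whether families moved as a whole. Of Arid3b, Arid3c, Plscr2, Plscr3, Plscr4, Cd300a, Cd300lb, Cd300ld and Cd300lg, 3 passed the minimum and 0 were called by limma in any comparison, with 1 at an unadjusted p under 0.05 in each of the 3. Arid3b, the relative of Arid3a, was at 31.4 to 36.4 FPKM in FO, 15.7 to 29.0 in BDL and 15.7 to 21.2 in MZ, and its difference of -0.84 between MZ and FO (limma adjusted p = 0.0319) was under the fold minimum. Plscr3 was at 1.84 to 2.09 FPKM in FO, 2.48 to 2.76 in BDL and 1.94 to 2.29 in MZ. It was the gene with an unadjusted p under 0.05 in both comparisons of BDL. Cd300a was at 1.46 to 2.77 FPKM across all libraries. Below the minimum, Plscr4 and Cd300ld were higher in each MZ library (0.424 to 0.488 and 0.563 to 0.907 FPKM) than in any other library (at most 0.0788 and 0.190). Arid3c, Plscr2 and Cd300lb did not exceed 0.0435 FPKM and Cd300lg did not exceed 0.140.

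A wider set of 36 genes linked to B-1 cells, also chosen with earlier results known, was then read, of which 33 could be tested. It held 17 genes of surface and secreted products, 8 regulators and 11 signalling genes whose loss alters the number of B-1 cells, most by reducing it and Ptpn6 (SHP-1) by raising it. In BDL against FO, 5 of the 33 were called higher and 0 lower by limma (1.64% and 0.267% of all tested rows). In BDL against MZ, 2 were called higher and 7 lower (3.47% and 4.34% of all rows), and in MZ against FO 9 were higher and 2 lower (5.54% and 3.39%). The median differences were 0.16, -0.24 and 0.13 in that order, against 0.05, 0.06 and -0.01 over all rows.

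The called genes were mostly those of surface and secreted products. Cd9, a tetraspanin, was at 1.71 to 2.12 FPKM in FO, 6.89 to 7.66 in BDL and 65.2 to 79.1 in MZ. Fcrl5, an Fc receptor-like protein, was at 5.16 to 6.90, 16.3 to 21.2 and 81.4 to 108 FPKM in the same order. Cd9 exceeded FO by 1.84 and Fcrl5 by 1.65 in BDL (limma adjusted p = 0.000136 and 0.00113), and both were far below MZ, by -3.31 and -2.39. Il10, an immunosuppressive cytokine, was at 0.144 to 0.165 FPKM in FO, 0.543 to 1.15 in BDL and 16.5 to 22.0 in MZ. Its difference was 1.88 between BDL and FO (limma adjusted p = 0.00322) and -4.35 between BDL and MZ (limma adjusted p = 8.8e-06). Cd80, a costimulatory ligand, and Plac8 were likewise called higher in BDL than in FO, by 1.18 and 1.23 (limma adjusted p = 0.017 and 0.00322). Cd80 was low, at 0.209 to 0.307 FPKM in FO, 0.522 to 0.821 in BDL and 2.22 to 3.14 in MZ. Plac8 was abundant, at 193 to 271, 505 to 567 and 943 to 1180 FPKM in the same order. Like Plscr1, these 5 genes had BDL values between those of FO and MZ. Without replicate 2 of every subset, Cd9 and Fcrl5 remained called between BDL and FO. CD9 and CD80 protein were reported by the study to be raised on BDL cells, an increase it called marginal.

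Lgals1 and S100a6, a galectin and a calcium-binding protein, had the order of Spn. Lgals1 was at 7.55 to 8.01 FPKM in FO, 11.0 to 14.0 in BDL and 2.64 to 3.71 in MZ, and S100a6 at 6.72 to 9.79, 14.1 to 18.3 and 3.16 to 3.80. Over MZ cells the BDL differences were 1.94 and 2.22 (limma adjusted p = 3.8e-05 and 3e-05). Mzb1, a chaperone of immunoglobulin secretion, was at 98.4 to 106 FPKM in FO, 117 to 156 in BDL and 265 to 361 in MZ. It was called higher in MZ than in FO, by 1.59 (limma adjusted p = 0.000103), and lower in BDL than in MZ, at -1.21 (limma adjusted p = 0.00054). Itgam (CD11b) was called higher in MZ than in FO, by 1.10 (limma adjusted p = 0.00198), and reached 0.89 in BDL over FO (limma adjusted p = 0.0208), below the fold minimum, where it was called without BDL replicate 3. Pdcd1lg2 (PD-L2) went the other way, at 5.77 to 6.38 FPKM in FO, 3.51 to 4.21 in BDL and 4.78 to 4.99 in MZ, with BDL at -0.62 against FO (limma adjusted p = 0.0054), also under the fold minimum. Csf2 was listed at 0 in all FO and BDL libraries and at 0.600, 0.195 and 0.359 FPKM in MZ.

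Ctla4 depended on whether replicates were matched by date. It was at 0.541, 1.69 and 0.388 FPKM in FO, 1.95, 5.50 and 0.909 in BDL and 2.42, 7.85 and 1.36 in MZ replicates 1 to 3. Replicate 2 was the highest in each subset. Without matching, BDL over FO was 1.46 (limma adjusted p = 0.317) and MZ over FO 1.90 (limma adjusted p = 0.128). With the replicate number as a block they were called, at adjusted p of 0.00347 and 0.000227 by limma. The T cell genes Cd3g and Cd3e, and the NK gene Gzma with 2.59 to 3.55 FPKM in replicate 2, were also high on that date, except for Cd3e in FO, and their part in Ctla4 was not tested.

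**Figure D3:**
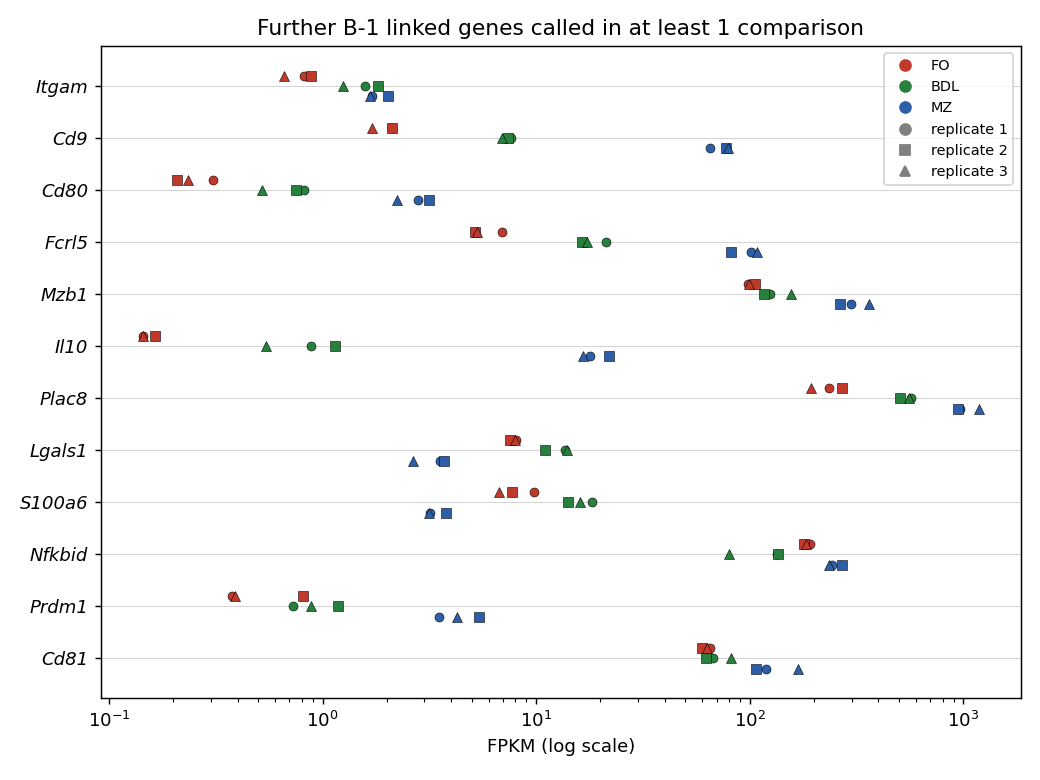
FPKM on a log axis for the 12 genes of the wider B-1 set that were called in at least 1 comparison, with 1 point per library, colour for the subset and symbol for the replicate. Cd9, Fcrl5 and Il10 step from FO through BDL to MZ, whereas Lgals1 and S100a6 are highest in BDL and lowest in MZ.

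The regulators and signalling genes came next. Of 7 regulators tested with limma, 0 were called between BDL and FO, with 2 higher and 1 lower at an unadjusted p under 0.05. Prdm1, which encodes the plasma cell regulator Blimp-1, was at 0.376 to 0.814 FPKM in FO, 0.725 to 1.18 in BDL and 3.50 to 5.41 in MZ, and was called in both comparisons with MZ. Nfkbid was at 179 to 191 FPKM in FO, 79.6 to 135 in BDL and 235 to 272 in MZ, and was called lower in BDL than in MZ, at -1.14 (limma adjusted p = 0.00348). This call of Nfkbid was lost without BDL replicate 3 and without replicate 2 of every subset. Lin28b, which drives fetal-type B-1a development, was at or below 0.0033 FPKM in every library. Of the 11 signalling genes, among them Btk and Blnk, Cd81 was called higher in MZ than in FO, by 1.05 (limma adjusted p = 0.00259), and 0 were called with limma in the other comparisons. At an unadjusted p under 0.05, 0 were higher and 1 lower in BDL than in FO, and 5 higher and 3 lower in BDL than in MZ.

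Plasma cells also display CD43, so their genes were read as well. Sdc1, which encodes CD138, was at 1.22 to 1.67 FPKM in FO, 6.86 to 9.58 in BDL and 0.114 to 0.289 in MZ. It shared the order of Spn, and BDL exceeded FO by 2.42 (limma adjusted p = 0.00147) and MZ by 4.99 (limma adjusted p = 6.5e-06). Derl3 had another order, at 1.06 to 1.22 FPKM in FO, 2.48 to 4.48 in BDL and 4.36 to 7.78 in MZ. It was called higher than in FO both in BDL, by 1.55 (limma adjusted p = 0.0107), and in MZ, by 2.26 (limma adjusted p = 0.000332). Against MZ, BDL was at -0.71, which was not called (limma adjusted p = 0.0738). Xbp1, Slamf7, Creld2 and Igj were not called in any comparison, and Tnfrsf17 (BCMA) was listed at 0 in all FO and BDL libraries. The summed plasma cell list was 46.7 to 50.5 FPKM in FO, 58.0 to 60.1 in BDL and 55.8 to 58.2 in MZ.

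**Figure D4:**
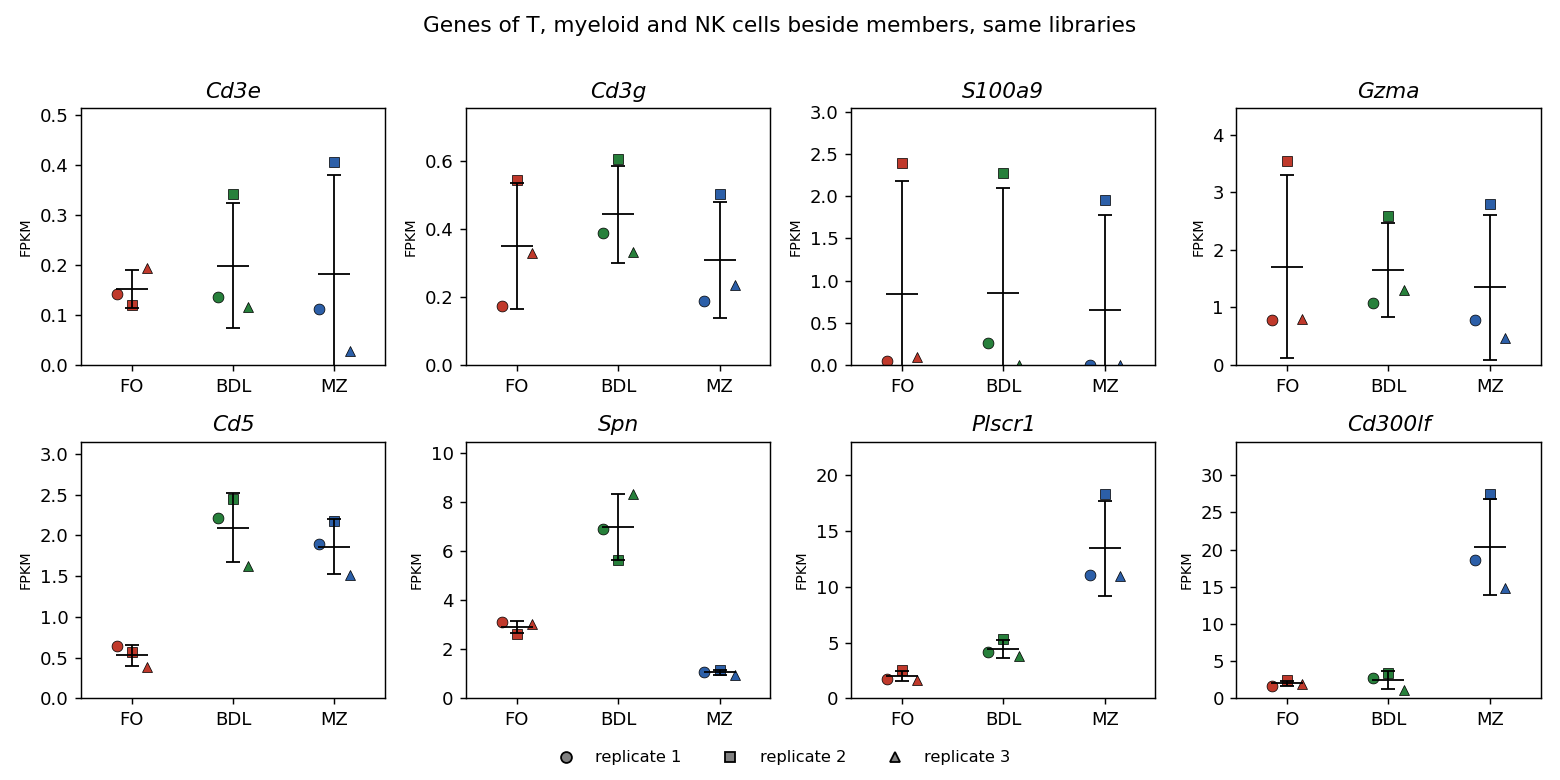
FPKM of 4 genes of T cells, granulocytes and NK cells (Cd3e, Cd3g, S100a9 and Gzma) above 4 of the B-1 associated genes, in the same 9 libraries, with the mean and SD of 3 libraries and the replicate given by the symbol. S100a9 and Gzma are highest in replicate 2 of every subset. Cd5 and Spn are higher in BDL than in FO in each of the 3 replicates. The part of other cells in these values was not tested.

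The genes with the profile most like each of the 8 were found from the root mean square difference of centred log2 values over the 9 libraries, where 0 would be an identical profile. For Cd5 these were Abcb4 (0.233) and Uhrf1 (0.236), the latter a factor of DNA methylation upkeep in dividing cells, at a mean of 1.86 FPKM in FO, 6.45 in BDL and 4.90 in MZ. Spn was closest to Ddah2 (0.185) and Palm (0.213), and Bhlhe41 to Adm (0.175) and Zfpm1 (0.178). Zfpm1, a cofactor of GATA proteins, averaged 4.99 FPKM in FO, 16.0 in BDL and 8.86 in MZ. For Zbtb32 the nearest were Cenpv (0.234) and Mgst2 (0.305). Among the genes highest in MZ, Bhlhe40 was nearest to Gm13251 (0.146) and Fam167a (0.153), Plscr1 to Hmgn3 (0.261) and Ptpn22 (0.263), and Cd300lf to Zfyve28 (0.286) and Cd1d2 (0.317). Arid3a was nearest to Mrps21 (0.064) and 2610306M01Rik (0.0714). Cd300lf, with the largest difference between subsets, had the least close neighbours.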

How the data were processed

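The authors deposited 1 table of FPKM values for the 9 libraries, 3 each of FO, BDL and MZ cells. Per the labels, single-end reads were processed with TopHat2 (version 2.1.0), Cufflinks and Cuffdiff on mm9. The labels call the libraries not strand-specific, whereas the methods of the study name a stranded kit. The methods also describe separate read files for each direction, as for paired-end reads, and this was not resolved. Read totals were not given in the sources used here. From the spacing of low values, 1 fragment on 1 kb was worth 0.0137 to 0.0186 FPKM, and depth ranged from 0.901 to 1.22 times that of FO replicate 1; 63.3 to 71.1% of these values lay within 0.1 of a whole number, against 20% by chance, so fragment numbers are approximate.

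FPKM was analysed as log2(FPKM + 0.1), which understates differences of low genes, for the 11597 rows that averaged at least 0.5 FPKM, with limma 3.58.1 in R 4.3.3 (all 9 libraries, subset as the single term, trend) and Benjamini-Hochberg adjustment over these rows. Scripts were tested on simulated data. The 8 genes and all gene lists were chosen with earlier results of these data known. Named were all 8 genes, each gene of the surface, regulator and signalling lists called in any comparison, each family relative, the 2 nearest profiles per gene, and marker genes that were called or near 0. Ctla4, Siglecg, Pdcd1lg2, Csf1r, Itgax, Klrb1c, Klrd1, Notch2, Vpreb1, Cd28, Cd8a, Lat, Itgam in BDL, Csf2 and Lin28b were named after their values were seen. A few listed genes are not reported here by name. Gene positions are from GENCODE M1 on NCBIM37 (mm9) and figures were drawn with matplotlib 3.10.9 in Python 3.11.15.

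The replicate numbers came from the dates in the titles, so the same number marks a shared date. Deviations from the subset means correlated by -0.0623 to 0.147 between same-date FO and BDL libraries, by 0.1 to 0.244 between BDL and MZ and by 0.0077 to 0.0238 between FO and MZ. A fit with the replicate block was therefore also made. Whether the same mice gave the 3 subsets of a date was not stated.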

Additional observations from a re-analysis of the deposited data

How the results depend on the processing

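Over all alternatives, the single-gene differences kept direction and call in 429 instances, lost the call in 21, gained it in 4 and changed sign in 2. The sign changes were those of Cd300lf between BDL and FO, to -0.14 without BDL replicate 2 (range -0.14 to 0.60 without single libraries) and to -0.021 without replicate 2 of every subset, an alternative chosen after seeing the data. With the replicate block the calls of the 8 genes were as without it, 5 higher and 0 lower in BDL than in FO, 2 and 2 against MZ, and 5 and 1 in MZ against FO. Of all tested rows, 49 instead of 31 were lower in BDL than in FO with the block. It added calls of Ctla4, of Klrd1 (BDL over FO 1.58, limma adjusted p = 0.0184) and of Igj (MZ over FO 1.09, limma adjusted p = 0.0104).

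With 1 added before the log2, by which low genes are compressed, 4 of the 8 were higher in BDL than in FO (Plscr1 was lost), 1 was higher in BDL than in MZ, 3 were higher in MZ than in FO and 0 lower. With the 6 libraries of the compared subsets, 1 was higher in BDL than in MZ. Without replicate 2 of every subset, 2 were higher in BDL than in FO and 1 higher in BDL than in MZ. Leaving out single libraries gave 1 to 2 higher in BDL than in MZ. Where no cause is given, the cause was not tested.

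Of all rows, 190 and 31 were higher and lower in BDL than in FO. These became 701 and 195 with no fold minimum, 78 and 16 with 1 added, and 64 and 14 without replicate 2 of every subset. The 31 became 17 with 6 libraries, 17 without FO replicate 1 and 15 without FO replicate 3. Against MZ, 402 and 503 became 1909 and 1346 with no fold minimum, and the 402 became 267 with 1 added. In MZ against FO, 642 and 393 became 1658 and 1483 with no fold minimum, and the 642 became 406 with 1 added. With no fold minimum Arid3a passed in BDL over FO and Bhlhe41 and Bhlhe40 in BDL against MZ. With upper quartile scaling Plac8 and Blnk were also called lower in BDL than in MZ. Cd5 and Zbtb32 rested on as few as about 47 fragments.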
